A study of Mus musculus with 6 samples.

Results

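Macrophages transcribe much more of the genome than its protein-coding genes, and the arrays of this study carried probes for 4610 stretches of the mouse genome that the array design names only by mm9 coordinates and a strand letter (F for forward, R for reverse). The scanner files describe these features as long intergenic noncoding RNAs (lincRNAs). A region was taken up here if a group existed among the 3 in which the scanner software called its probe well above background on each array, and the probe of highest mean signal stood for the region. That left 2129 of 4610 regions (46.2%), among 34787 features on the array in all. The members were thus selected on their measured signals, chosen by detection, and the levels and detection patterns below are descriptions with no test.

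Bone-marrow-derived macrophages (BMDMs) were grown for 7 days in L929-conditioned medium, which supplies the growth factor M-CSF, from wild-type female C57BL/6 mice, and all 3 groups share this origin. The labels give an age of 6 to 8 weeks, whereas the methods give an older range for such cultures and name the strain as C57BL6/J. They were left untreated, stimulated with lipopolysaccharide (LPS) for 4 h, or given the USP7 inhibitor HBX41,108 at 10 µM for 30 min before the same LPS stimulation (LPS+USP7i), with 2 arrays per group, 6 in all. The series text gives the LPS dose as 100 ng/ml and the treatment protocol as 100 ng/µl, and the sources used here state no solvent control for the inhibitor and no group with the inhibitor alone. Replicates are labelled as independent experiments. All 8 macrophage marker genes were well above background on all 6 arrays, and none of the 4 erythroid markers was in any group, while 6 of 8 neutrophil and precursor markers were on all 6 arrays. Of the other lists, 4 of 5 B cell, 3 of 4 dendritic cell, 2 of 5 T cell, 2 of 4 endothelial and 1 of 5 fibroblast markers passed the detection rule in some group. The median level of the B cell markers was 4.67 untreated, 6.59 with LPS and 5.84 with LPS+USP7i, and that of the dendritic cell markers 7.07, 8.39 and 7.93. The neutrophil and precursor markers had medians of 8.31, 8.87 and 7.63 in the same order. Their part in the results was not tested. In these bulk samples, fewer cells of a type and less RNA per cell cannot be told apart.

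LincRNAs are RNA polymerase II transcripts that lie between protein-coding genes and have no long reading frame. Some act in the nucleus on chromatin or splicing, some are precursors of microRNAs, and some mark transcribed enhancers or unannotated ends of neighbouring genes. LPS acts through Toll-like receptor 4, whose signals reach NF-κB, AP-1 and interferon regulatory factors, and noncoding RNAs next to immune genes are among the transcripts these factors control. USP7 is a deubiquitinase whose substrates include p53, Mdm2 and NF-κB subunits.

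Probes of members described below are printed here because their letters, and not a gene name, identify what was measured. Each is 60 bases long, runs 5′ to 3′ in the sense of the transcript, and is given with its mm9 position. Capitals mark AATAAA, the polyadenylation hexamer, or ATTTA, the core of AU-rich elements, where the probe holds one. The first 5 lines belong to members that were higher after LPS.
chr16:84708695-84708806_F (probe at chr16:84708738-84708797, plus strand): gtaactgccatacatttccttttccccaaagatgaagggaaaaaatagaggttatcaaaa
chr16:84702353-84710928_R (probe at chr16:84705907-84705966, minus strand): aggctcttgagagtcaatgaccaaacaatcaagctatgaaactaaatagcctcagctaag
chr10:69669025-69686275_R (probe at chr10:69682206-69682265, minus strand): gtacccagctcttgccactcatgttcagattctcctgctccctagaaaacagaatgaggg
chr16:4867322-4874772_F (probe at chr16:4869068-4869127, plus strand): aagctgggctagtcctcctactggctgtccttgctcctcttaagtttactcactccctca
chr1:152001112-152012796_R (probe at chr1:152007786-152007845, minus strand): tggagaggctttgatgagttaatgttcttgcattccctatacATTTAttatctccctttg

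The next 2 are the strands of the Malat1 stretch, of which the reverse was lower after LPS and the forward higher.
chr19:5771425-5848475_R (probe at chr19:5795752-5795811, minus strand): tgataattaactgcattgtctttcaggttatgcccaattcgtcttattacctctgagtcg
chr19:5771425-5848475_F (probe at chr19:5845052-5845111, plus strand): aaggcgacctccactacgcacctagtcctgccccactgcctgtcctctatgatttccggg

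The last 5 belong to members described under the inhibitor, the first 3 higher and the others lower with LPS+USP7i than with LPS. Of these, chr9:78107225-78118850_F was a member only through the LPS+USP7i arrays. Its height there was fixed by the choice of members and carries no result.
chr19:5834117-5835940_R (probe at chr19:5834543-5834602, minus strand): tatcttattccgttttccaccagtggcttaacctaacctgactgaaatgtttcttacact
chr5:22890322-22939119_R (probe at chr5:22890323-22890382, minus strand): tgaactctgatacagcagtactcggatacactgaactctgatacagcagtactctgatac
chr9:78107225-78118850_F (probe at chr9:78116834-78116893, plus strand): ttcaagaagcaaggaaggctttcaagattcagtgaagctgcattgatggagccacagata
chr11:53596919-53672731_R (probe at chr11:53609314-53609373, minus strand): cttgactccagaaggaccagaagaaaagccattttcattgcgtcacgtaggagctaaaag
chr7:111530578-111539097_R (probe at chr7:111530859-111530918, minus strand): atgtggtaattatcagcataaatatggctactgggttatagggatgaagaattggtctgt

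Of these, the probe of chr5:22890322-22939119_R holds a run of 23 bases that occurs in it at 2 places, so it is partly a repeat. Over all members, AATAAA was found on the probe's own strand in 4.37% of probes, against 15.2% of the probes of detected gene-named features and 10.1% of all 60-base probes on the array. The opposite strand (TTTATT) held it in 2.49% of the members' probes and 3.74% of all probes. ATTTA was found in 4.88% of the members' probes and 7.71% of all probes, and on the opposite strand (TAAAT) in 6.58% and 9.67%; the motifs were searched separately and can share 1 base. Median GC content was 45% in the members and 43.3% in all probes. These are counts of letters in 60 bases and describe the probes, not the transcripts beyond them.

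The members divided about evenly between the strands, with 1045 forward and 1084 reverse. They lay on 20 chromosomes, most on chromosome 1 (166 members), chromosome 4 (154) and chromosome 17 (152), and 68 were on chromosome 18. Their median length was 12576 bases, from 90 to 533972, against 8542 bases for regions that were not detected. Many regions overlap, and the 2129 members fell into 1297 stretches of genome, of which 765 held 1 member and 532 held 2 or more, up to 8. Members of 1 stretch are therefore not separate observations.

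Although named as intergenic, 475 members (22.3%) spanned the position of a probe for a RefSeq gene. That gene lay on the same strand for 304 members (14.3%) and on the opposite strand for 203 (9.53%), with 32 spanning both kinds. Among members with no gene probe inside, the median distance to the nearest one was 18.7 kb, and 417 members (19.6%) were more than 50 kb from any. An exact run of 30 bases or more was shared with a gene-named probe on the same strand by 43 members and on the opposite strand by 10. The whole probe lay inside a RefSeq promoter window (250 bases before to 50 after a gene start) on the same strand for 20 members and on the opposite strand for 22.

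Members were dimmer than genes. On the normalized log2 scale of probe signal, the member levels averaged over the arrays ran from 3.05 to 17.3 with a median of 6.28 and quartiles of 5.11 and 8.16, whereas the detected gene-named features had a median of 9.45. Signals of different probes are not calibrated to each other, so these are brightness values and not transcript numbers. Of the members, 1550 (72.8%) were well above background in all 3 groups. A further 244 (11.5%) passed only in untreated cells, 47 (2.21%) only with LPS and 54 (2.54%) only with LPS+USP7i. The remaining patterns were untreated with LPS+USP7i (129 members), untreated with LPS (66) and LPS with LPS+USP7i (39). In total 1989 members passed on the untreated arrays, 1702 after LPS and 1772 after LPS+USP7i. Spots of the whole array followed this order. The untreated arrays had 27467 and 27126 spots well above background. Stimulation alone gave 25223 and 25002, and inhibitor pretreatment 26415 and 25290. The 75th percentile of signal before normalization was 324.5 and 458.1 on the untreated arrays, against 233.1 to 288.4 on the others. Whether members were lost beyond this array-wide difference was not tested.

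At the edge of detection, the dimmest members averaged 3.05 (chr9:55925993-55926583_R), 3.06 (chr13:74572275-74600648_R) and 3.099 (chr12:53669892-53710742_F) and passed on the untreated arrays alone. The brightest regions left out averaged 5.82 (chr3:117995784-117996372_F, well above background on 1 array), 4.75 (chr19:12079745-12088620_F, on 3 arrays of 3 groups) and 4.74 (chr3:95443575-95462543_R, on 2). Of all members, 8 had at least 1 array set missing because the scanner marked the spot as an outlier, and 1 of these (chr13:73472571-73483846_F) had no value left in a comparison and stands in none.

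The brightest members were nearly level across the groups. The brightest of all, chr8:48476637-48492537_F between Stox2 and Trappc11, had signals of 17.39 and 17.22 untreated, 17.11 and 17.15 after LPS and 17.31 and 17.35 after LPS+USP7i. The reverse-strand region chr17:17481706-17482457_R had 17.28 and 17.39, then 16.96 and 16.97, then 17.36 and 17.34. A probe named for Oaz1, the polyamine-controlled inhibitor of ornithine decarboxylase, maps inside it, where RefSeq places the pseudogene Oaz1-ps. Its LPS minus untreated difference was -0.37 (limma adjusted p = 0.0321), a call that was lost without any 1 of the 6 arrays, in the deposited log2 values (adjusted p = 0.257) and with the slide row as a block (adjusted p = 0.0556). Scaling the arrays to their 75th percentile instead turned it to 0.21. The fourth brightest, chr11:22681800-22707775_R, shares a run with a probe of Rps16, a ribosomal protein gene of the small subunit.

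LPS raised more of the members than it lowered. Of 2128 tested members, 273 (12.8%) were higher and 162 (7.61%) lower in LPS-stimulated than in untreated BMDMs at a Benjamini-Hochberg adjusted p under 0.05 in limma, adjusted over 55680 probes. Of all probes tested, 7.09% were higher and 10.7% lower. Among gene-named features that passed the same detection rule, 13.9% were higher and 25.0% lower. The share of members higher was thus close to that of genes, and the share lower was smaller. The median log2 difference was 0.17 over members and -0.24 over those genes. With the arrays scaled to their 75th percentile instead, these medians were 0.24 and 0.02. Among the 1549 tested members well above background on all 6 arrays, 222 (14.3%) were higher and 110 (7.1%) lower.

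The smaller share of lower members was also seen within ranges of brightness. Of the 390 members with a mean level of 9 or more, 15.9% were higher and 7.69% lower, against 15.1% and 28.1% of the gene-named features in that range. Between levels of 5 and 7, the range that holds the largest number of members, 12.9% of 837 members were higher and 7.17% lower, against 12.1% and 18.5% of features. The 5th and 95th percentiles of the members' differences were -1.57 and 1.86. Scaling to the 75th percentile, which put the median LPS minus untreated difference of all probes at 0.51 in place of 0.00448, gave 19.7% of members higher and 9.11% lower, and 20.8% and 22.6% of gene-named features. With that scaling the share of higher calls among all called probes went from 39.9% to 79.3%, and among called members from 62.8% to 68.4%. Leaving out 1 array in turn gave 107 to 233 members higher and 56 to 168 lower, with the lowest counts of both without untreated replicate 2.

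**Figure D1:**
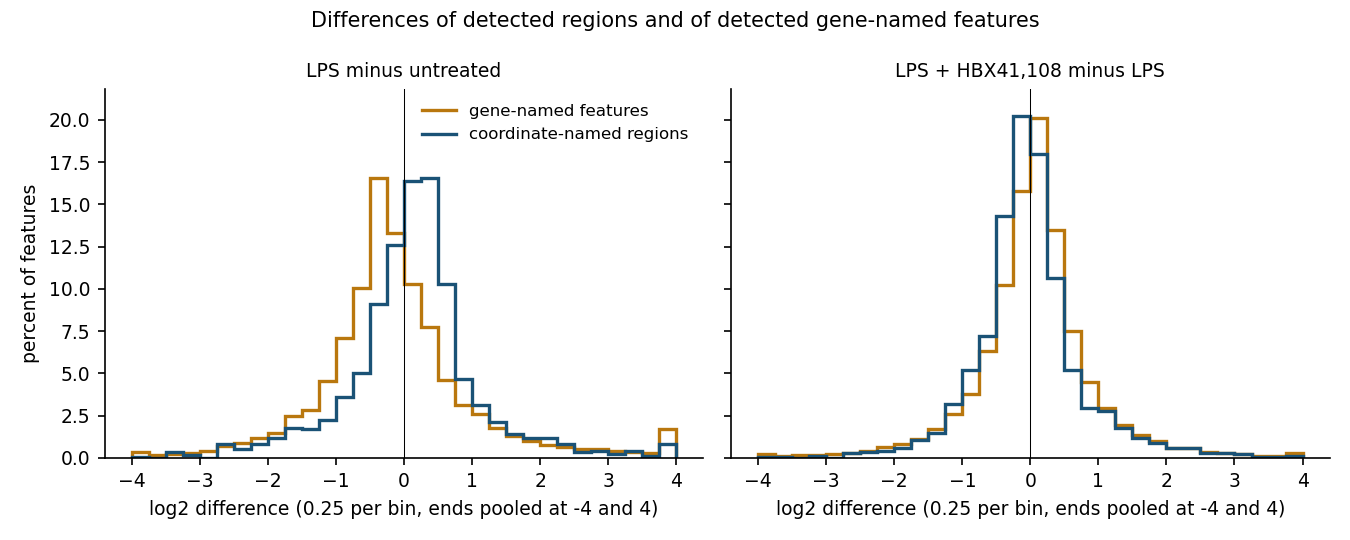
Distribution of log2 differences (x axis, log2 units) for the 2128 tested coordinate-named members and for detected gene-named features, as the percent of each set per bin (y axis), for LPS minus untreated (left) and LPS+USP7i minus LPS (right), with values beyond the ends pooled in the outermost bins. With quantile-normalized arrays, the median LPS difference was 0.17 in members and -0.24 in genes, and the left arm of the gene distribution holds a larger share.

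The strongest rise that could only be bounded lay on chromosome 16 between A730009L09Rik and Mrpl39, the interval where RefSeq places Mir155hg, the host transcript of microRNA miR-155, which is a well-known product of LPS-stimulated macrophages. The forward-strand region chr16:84708695-84708806_F had signals of 3.17 and 2.29 untreated, 10.91 and 10.87 after LPS and 9.73 and 9.38 after LPS+USP7i. It was not well above background on either untreated array, so the rise is at least 126-fold (adjusted p = 0.00291). Members with such a bound became members through the groups in which they were bright, so that a difference was in part fixed by the detection rule. Their bounds and adjusted p-values are therefore descriptions and no test of a rise or fall, here and below. The difference of -1.34 with the inhibitor in chr16:84708695-84708806_F did not pass the test (adjusted p = 0.106).

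The reverse strand of the same stretch, chr16:84702353-84710928_R, had 3.67 and 3.77, then 10.39 and 10.42, then 9.13 and 8.93. It rose at least 90.1-fold with LPS (adjusted p = 0.00152) and fell by 1.37 log2 units from LPS to LPS+USP7i (SE 0.10, adjusted p = 0.0135). On the forward strand, chr16:84702353-84710928_F rose at least 24.1-fold, and chr16:84707202-84707748_F at least 18.8-fold, with an inhibitor difference of -1.503 (adjusted p = 0.0178). The signals with LPS lay above those with LPS+USP7i, and both above the untreated ones, in all 4 of these regions. The 2 strands were measured with probes 0.098 kb apart. Another member there, chr16:84708005-84708675_R, differed by 0.04 with LPS (adjusted p = 0.996). Its signals ran from 4.32 to 5.15, and it was not well above background on each LPS array. Whether the reverse-strand transcript differs along the stretch was not tested. No 2 of these 5 probes shared a run longer than 8 bases.

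Among members detected in every group, chr10:69669025-69686275_R between Ccdc6 and Slc16a9 rose most. Its signals were 7.17 and 7.39 untreated, 14.02 and 13.88 after LPS and 12.56 and 12.55 after LPS+USP7i. That is 102-fold with LPS (log2 difference 6.67, SE 0.11, adjusted p = 0.00152), with a fall of 1.40 from LPS to LPS+USP7i (adjusted p = 0.0149). The region lies across Mrln, the gene of the muscle micropeptide myoregulin, on the other strand, whose own probe differed by -0.91 (adjusted p = 0.27). The region's second detected probe differed by only 0.95 with LPS, and by 0.59 from LPS to LPS+USP7i, the opposite direction. The region's probes thus do not tell the same size with LPS, nor the same direction with the inhibitor.

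A large rise was also measured in chr16:4867322-4874772_F, which spans a probe of 4930562C15Rik. It had 7.01 and 6.98, then 12.74 and 12.67, then 11.38 and 11.54, a 52.4-fold rise (adjusted p = 0.00152), whereas its second probe differed by 1.43. The histone-cluster region chr13:21856097-21859200_R between H2ac15 and H1f5 had 9.55 and 9.14, then 14.71 and 14.66, then 12.29 and 12.85. It rose 40.4-fold (adjusted p = 0.00319) and was 2.11 lower on the log2 scale with the inhibitor than with LPS alone (difference -2.11, adjusted p = 0.0258). In each of these regions the groups did not overlap, and the order was LPS, LPS+USP7i, untreated.

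The genes with the nearest probes did not share the rises. The differences were 0.02 for 4930562C15Rik (adjusted p = 0.946) and -1.47 for H2ac15 (adjusted p = 0.00534), whose probe lies 10.4 kb away. RefSeq places further genes between the flanking probes of these regions, among them Ubald1 and H2bc15, whose values are not given here. In the Trim30 cluster, genes of the TRIM family of ubiquitin ligases, chr7:111530578-111539097_R had 7.51 and 7.15 untreated, 12.55 and 12.30 after LPS and 9.25 and 10.09 after LPS+USP7i. The 34.2-fold rise (adjusted p = 0.00464) was accompanied by 5.57 log2 units in its second probe, and a Trim30c probe inside the region on the same strand rose by 6.76. Both then fell with the inhibitor, the region by 2.75 log2 units (adjusted p = 0.0273, 0.0593 with the slide row as a block), and Trim30c differed by -3.004 (adjusted p = 0.0304).

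At Herc6, which encodes the main ligase for the ubiquitin-like protein ISG15 in mice, chr6:57560819-57569928_F had 2.60 and 2.21, then 8.71 and 8.36, then 6.30 and 7.06. No untreated array read well above background, the rise was at least 24.7-fold (adjusted p = 0.00367), and it stood beside 4.75 log2 units for the Herc6 probe inside it. Next to it, chr6:57583950-57624216_F rose by 2.58 (adjusted p = 0.0076) and fell with the inhibitor by 1.82 log2 units (adjusted p = 0.0296), and another Herc6 probe, inside this region, differed by 2.68 (adjusted p = 0.00616) and -1.84 (adjusted p = 0.0256). Its other strand, chr6:57583950-57624216_R, with a probe 0.003 kb away, had 4.06 and 3.54, then 6.62 and 8.19, then 4.20 and 4.61. It was a member only through the LPS arrays, so its height there was fixed by the choice of members.

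In the interval between Ptgs2, the inducible cyclooxygenase, and Pdc, where RefSeq places the noncoding RNA Ptgs2os2, chr1:152001112-152012796_R had 2.09 and 2.11 untreated, 7.38 and 7.78 after LPS and 5.05 and 5.85 after LPS+USP7i. It rose at least 12.7-fold (adjusted p = 0.004) and fell with the inhibitor by 2.13 log2 units (adjusted p = 0.038). Ptgs2, 46.3 kb away on the other strand, rose by 10.1. On chromosome 17, chr17:64063362-64066067_R had its nearest gene-named probe, that of the tyrosine kinase gene Fer, 422 kb away, and had 2.32 and 1.95, then 8.67 and 8.67, then 8.63 and 8.27. Its rise of at least 27.1-fold (adjusted p = 0.00249) was nearly as large with the inhibitor, with a difference of -0.22 between LPS+USP7i and LPS (adjusted p = 0.596).

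On chromosome 10, chr10:24269165-24276690_F, 41.6 kb from a probe of Ccn2 (connective tissue growth factor), had 5.48 and 5.44, then 9.45 and 9.77, then 8.25 and 8.63, a 17.7-fold rise (adjusted p = 0.00309). On chromosome 8, chr8:41934312-41945487_R between Adam39 and Slc7a2, an arginine transporter gene, had 7.59 and 7.59, then 11.16 and 10.78, then 9.96 and 10.12. It rose 10.4-fold (adjusted p = 0.0031), with 3.15 log2 units in the second of its 4 detected probes. Both fell with the inhibitor, by 1.17 (adjusted p = 0.0414) and by 0.93 log2 units (adjusted p = 0.0451).

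**Figure D2:**
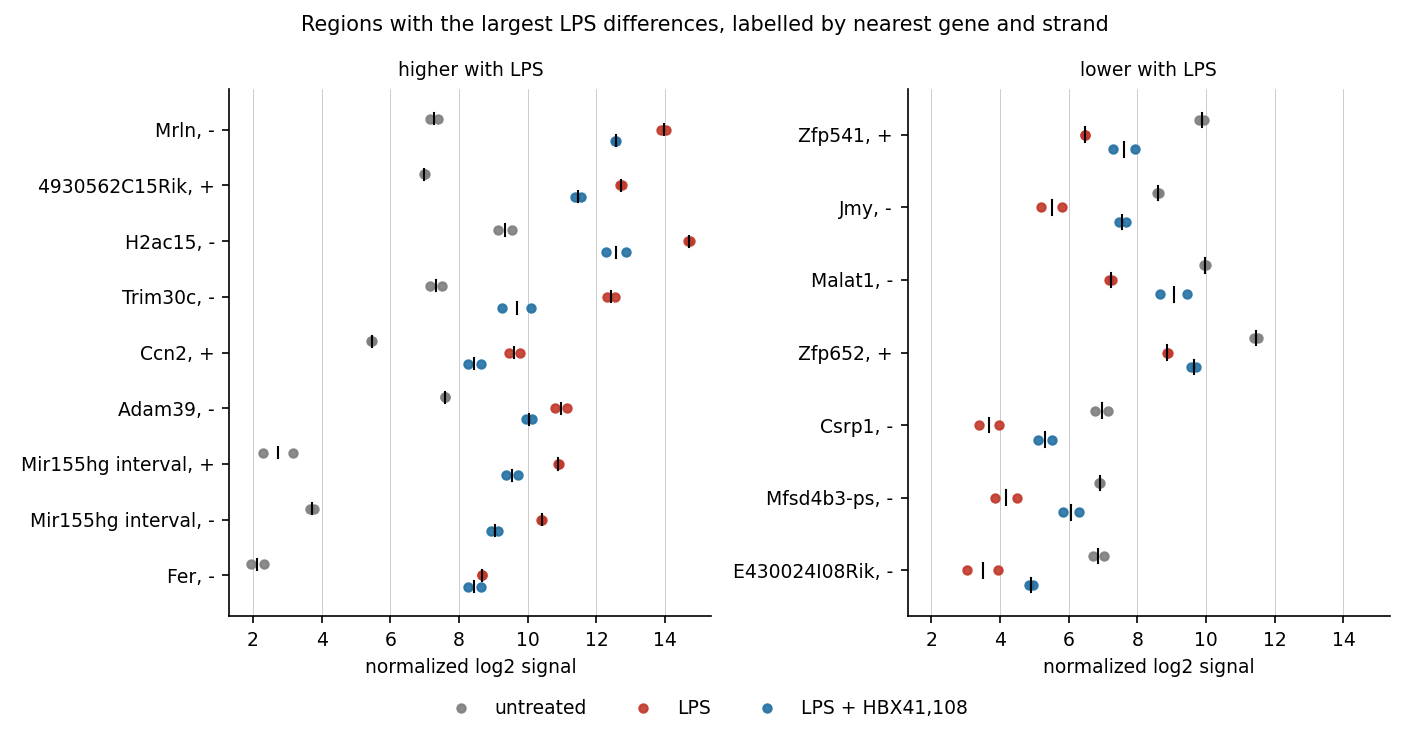
Normalized log2 signal (x axis) of named members with the largest differences between LPS and untreated BMDMs (rows, labelled by nearest gene and strand), 1 point per array, coloured by group (LPS+USP7i appears as LPS + HBX41,108), with the group mean as a bar. Among the risers the 2 LPS arrays of each region sit above its untreated arrays, as in the region across Mrln at 14.02 and 13.88 against 7.17 and 7.39.

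Around Morrbid, a lincRNA known for controlling the lifespan of short-lived myeloid cells, all 5 members were higher with LPS, where 12.8% of all members were, but 3 of them were not well above background untreated and became members through the stimulated groups. The region across it, chr2:128142035-128142481_R, had 3.35 and 3.34, then 6.92 and 7.38, then 5.42 and 6.93, a rise of at least 9.44-fold (adjusted p = 0.0208). The neighbouring chr2:128137419-128141735_R rose at least 5.15-fold (adjusted p = 0.0131), and chr2:128249388-128250301_F, on the other strand, at least 6.80-fold (adjusted p = 0.00862). The remaining members were detected throughout, and chr2:128211990-128215223_R differed by 2.90 (adjusted p = 0.00608) and chr2:128217275-128217972_R by 1.47 (adjusted p = 0.0404). None of the 5 passed the test between LPS+USP7i and LPS. This neighbourhood was singled out after its values were seen, so its count of 5 higher members describes it and is no test.

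Among members that fell with LPS, chr7:16633756-16634410_F between Bicra and Zfp541 had 9.95 and 9.80, then 6.48 and 6.49, then 7.93 and 7.28, the largest measured fall (10.5-fold, adjusted p = 0.00513), with -3.62 in its second probe. The region next to Jmy, a cofactor of p53 that also nucleates actin, chr13:94182877-94203935_R, had 8.62 and 8.57, then 5.20 and 5.82, then 7.66 and 7.48. It fell 8.49-fold (adjusted p = 0.00546) and was 2.06 higher with the inhibitor than with LPS alone (adjusted p = 0.0239).

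At Zfp652, a zinc finger repressor gene, chr11:95627874-95640824_F fell by 2.59 log2 units (adjusted p = 0.00253) from 11.50 and 11.41 to 8.88 and 8.86, and its probe shares a run with a Zfp652 probe, which fell by 2.68. The reverse strand, chr11:95627874-95640824_R, with a probe 3.81 kb away, fell by 2.48 (adjusted p = 0.00704), a call lost without untreated replicate 2 (adjusted p = 0.051). Falls to a level not well above background were at least 5.56-fold in chr1:137503023-137625604_R between Nav1 and Csrp1, at least 5.35-fold in chr10:39659425-39674200_R across Mfsd4b3-ps, and at least 5.22-fold in chr13:74712775-74728450_R near E430024I08Rik. The last 2 of these calls were lost without either untreated array (adjusted p up to 0.0616 and 0.0572).

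The inhibitor changed fewer members. Between LPS+USP7i and LPS, which share the LPS arrays with the first comparison, 93 of 2128 members (4.37%) were higher and 121 (5.69%) lower in limma, against 4.66% and 3.79% of all probes tested and 10.4% and 7.48% of the detected gene-named features. The share of members that was higher was near that of all probes, the share lower was above it, and both were below those of genes. The median difference was -0.05 and the 5th and 95th percentiles were -1.17 and 1.38. Among members well above background on all 6 arrays, 67 (4.33%) were higher and 92 (5.94%) lower. Both counts went to 0 over all probes without either untreated array, with 241 and 342 members at an unadjusted p under 0.05 and a smallest adjusted p of 0.0561, so every call named in this comparison rests on the spread taken from all 3 groups. None of the 16 named calls of this comparison that were refitted, of which 4 were members through 1 group alone, passed in each of the 6 fits that left out 1 array, although no sign turned. Beyond the untreated arrays, 12 of the 16 were also lost without LPS replicate 1 and without LPS replicate 2, and 8 without LPS+USP7i replicate 1.

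The largest measured rise lay between the probes of Malat1 and Neat1, a pair of abundant nuclear lncRNAs of which Neat1 builds paraspeckles. Only probe positions were used, so whether this region is part of the Neat1 transcript was not tested. The region chr19:5834117-5835940_R, 6.62 kb from a Neat1 probe on the same strand, had 6.84 and 6.99 untreated, 4.98 and 5.71 after LPS and 9.82 and 8.81 after LPS+USP7i. It was 15.7-fold higher with LPS+USP7i than with LPS (log2 difference 3.97, SE 0.44, adjusted p = 0.0236). With the slide row as a block the adjusted p was 0.054, and without 1 array it went up to 0.0857, with the call kept only without LPS+USP7i replicate 2. The difference was 4.21 in its second probe. The Neat1 probe itself differed by 0.92 in this comparison without passing the test (adjusted p = 0.286), and by -3.19 with LPS (adjusted p = 0.0135).

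The longer region that contains both genes, chr19:5771425-5848475_R, had 10.00 and 9.93, then 7.27 and 7.17, then 9.44 and 8.67. It fell by 2.74 with LPS (adjusted p = 0.00916, lost without any 1 of the untreated or LPS arrays, up to 0.0596) and was 1.83 higher with the inhibitor (adjusted p = 0.0389). Its forward strand, chr19:5771425-5848475_F, had 10.11 and 9.93, then 11.36 and 11.47, then 10.68 and 10.65, which is 1.40 higher with LPS (adjusted p = 0.00461) and 0.75 lower with the inhibitor (difference -0.75, adjusted p = 0.0273). The probes of these strands lie 49.3 kb apart, so they do not read the same stretch. The second of 10 detected forward probes differed by -2.19 with LPS and by 1.30 from LPS to LPS+USP7i, the opposite direction in each comparison.

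On chromosome 5, a pair of reverse-strand members at 5031425E22Rik, a lncRNA gene next to the chromatin regulator Kmt2e, was higher with the inhibitor. In chr5:22890322-22939119_R the signals were 6.58 and 6.92, then 5.90 and 5.92, then 9.66 and 9.17, a difference of 3.51 (SE 0.22, adjusted p = 0.0123). In chr5:22887983-22939658_R they were 6.57 and 6.86, then 6.50 and 6.17, then 9.72 and 9.35, a difference of 3.20 (adjusted p = 0.0126). The probes of this pair share 56 of their 60 bases in 1 run, so they count as close to 1 measurement. Another, chr5:22905597-22939154_R, had 2.49 and 1.997, then 2.67 and 1.95, then 5.10 and 5.64. It was a member only through the LPS+USP7i arrays, so its height there was fixed by the choice of members. The 5031425E22Rik probe differed by -0.13 (adjusted p = 0.862), and the other 3 members of this stretch did not pass the test.

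A stretch of distal chromosome 2 with many related zinc finger genes (Gm14308 to Gm14440, Zfp967) held 9 members, of which 6 were higher with the inhibitor and none lower, where 4.37% of all members and 4.66% of all probes were higher. The largest difference was that of chr2:175140765-175141331_R, which had 7.07 and 7.59 untreated, 5.44 and 5.59 after LPS and 8.48 and 8.25 after LPS+USP7i, 2.85 higher (adjusted p = 0.0148) after a fall with LPS of 1.82 on the log2 scale (adjusted p = 0.0129). Probes here were not separate either, as 4 of 36 pairs shared a run of 20 bases or more. The longest such run was 47 bases, between chr2:174943325-174966675_R and chr2:176264400-176302925_F. This stretch was singled out after its values were seen, so its count of 6 higher members describes it and is no test.

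Other rises with the inhibitor started from a level that was not well above background with LPS. They were at least 5.22-fold in chr17:56687541-56694616_R (adjusted p = 0.0345), in the interval where RefSeq places the epidermal lncRNA Tincr, and at least 4.42-fold in chr6:40699474-40719122_F across Mgam, maltase-glucoamylase (adjusted p = 0.0182). In chr9:78107225-78118850_F, 16.8 kb from a probe of the glutathione S-transferase gene Gsta1, signals were 3.097 and 2.10, then 2.08 and 2.17, then 5.92 and 6.99. The region chr5:14943275-14944205_F near Speer4e had 3.80 and 4.58, then 3.89 and 4.53, then 6.79 and 7.35. Both were members only through the LPS+USP7i arrays, so their height there was fixed by the choice of members. Gsta1 differed by 3.77 (adjusted p = 0.0135).

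Falls with the inhibitor were largest, among measured members, in chr7:111530578-111539097_R of the Trim30 cluster described above, followed by chr11:53596919-53672731_R, which lies between Irf1, an interferon regulatory factor, and Slc22a5, a carnitine transporter. Its signals were 5.35 and 4.93 untreated, 8.13 and 8.18 after LPS and 5.38 and 5.59 after LPS+USP7i. It rose by 3.02 with LPS (adjusted p = 0.00394) and was 2.67 lower with the inhibitor than with LPS alone (difference -2.67, SE 0.17, adjusted p = 0.0126). The lncRNA Gm12216 inside it on the same strand differed by 3.31 and -2.15.

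A similar set of values came from chr2:145501249-145508811_F, 33.6 kb from a probe of the cation exchanger gene Slc24a3, with 5.26 and 5.53, then 8.25 and 8.21, then 5.83 and 5.99, a difference of -2.31 (adjusted p = 0.0112). In both regions the LPS arrays stood apart and the untreated and LPS+USP7i arrays lay within 1 log2 unit of each other. Next to Cdyl2, a chromodomain gene, chr8:119090566-119097735_R had 8.73 and 8.91, then 10.07 and 10.43, then 7.41 and 8.26, with a difference of -2.41 (adjusted p = 0.0327). Its LPS rise of 1.43 did not pass the test (adjusted p = 0.0623). The overlapping chr8:119092623-119094219_R differed by -2.31 (adjusted p = 0.0334), and the forward strand, chr8:119090566-119097735_F, by -0.01 (adjusted p = 0.997). The regions chr7:13533925-13544525_F across 1810019N24Rik, chr6:28161665-28189840_F across 6530409C15Rik and chr4:63736566-63744848_R, 61.6 kb from the tenascin gene Tnc, were members only through the LPS arrays, so their height there was fixed by the choice of members. The first had 3.64 and 2.96 untreated, 7.14 and 6.26 after LPS and 3.36 and 3.55 after LPS+USP7i, and the LPS levels of the others ran from 6.01 to 6.63. Their inhibitor calls and that of the Speer4e region were lost in all 6 fits that left out 1 array.

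**Figure D3:**
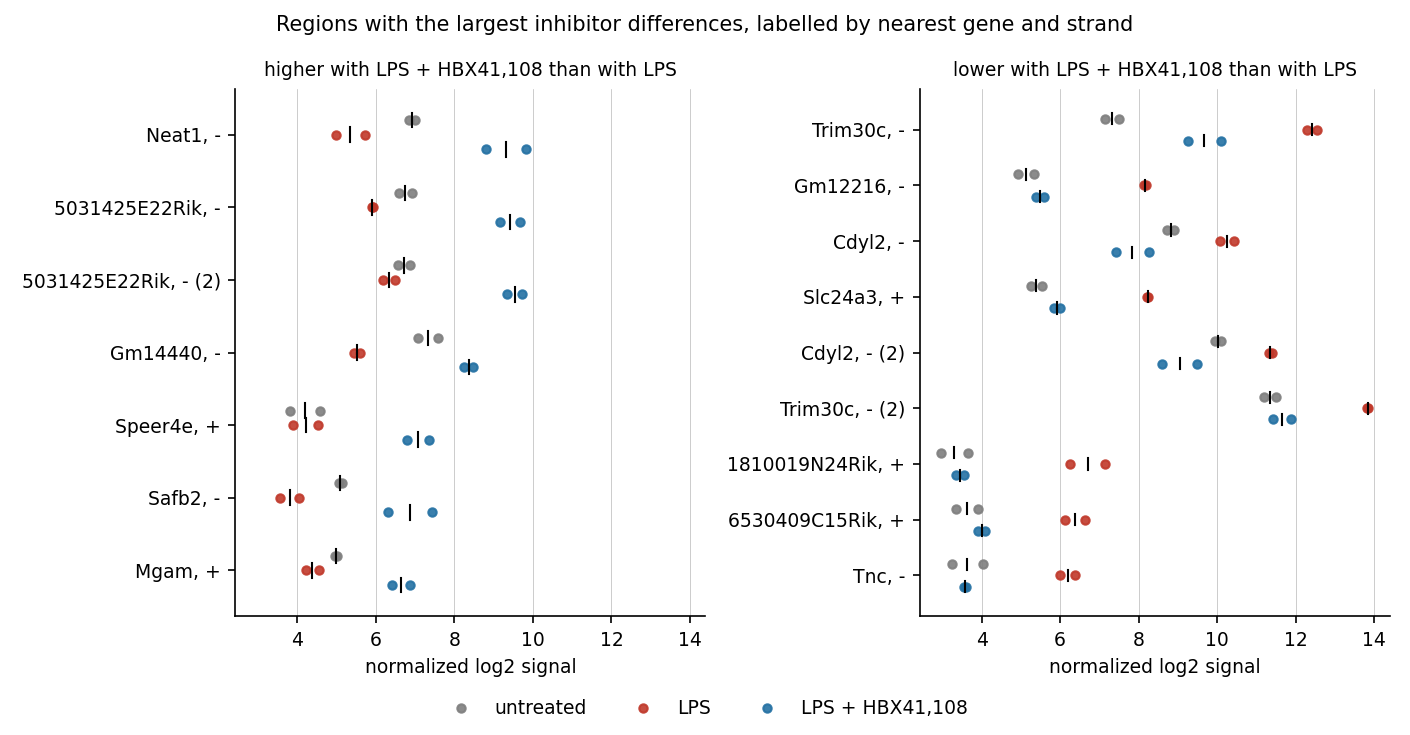
Normalized log2 signal (x axis) of named members with the largest differences between LPS+USP7i (LPS + HBX41,108) and LPS (rows, labelled by nearest gene and strand, with (2) for a second region of that label), 1 point per array, coloured by group, with the group mean as a bar. The Neat1-side region sits at 9.82 and 8.81 with the inhibitor and 4.98 and 5.71 with LPS, and the Gm12216 region at 5.38 and 5.59 against 8.13 and 8.18.

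Against untreated cells, LPS+USP7i left 172 members (8.08%) higher and 103 (4.84%) lower, where 5.65% and 7.34% of all probes and 11.2% and 16.9% of detected gene-named features were. Of those higher, 16 were members through LPS+USP7i alone and 16 through LPS and LPS+USP7i. Of those lower, 22 were members through untreated cells alone and 4 through untreated and LPS. Their direction was in part fixed by the detection rule. Among members well above background on all 6 arrays, 132 (8.52%) were higher and 71 (4.58%) lower. Leaving out 1 array gave 28 to 111 higher and 14 to 83 lower, with the lowest counts without untreated replicate 2. The untreated and LPS+USP7i arrays each also serve 1 of the other comparisons. Scaling to the 75th percentile moved the share of higher calls among called members from 62.5% to 74.6%. The largest measured rises were those of chr10:69669025-69686275_R (5.27, adjusted p = 0.00384), chr16:4867322-4874772_F (4.47, adjusted p = 0.00384) and chr13:21856097-21859200_R (3.22, adjusted p = 0.00854, 0.0527 without untreated replicate 2). In their second detected probes, chr10:69669025-69686275_R differed by only 1.53 and chr16:4867322-4874772_F by only 0.15. The largest falls measured in both groups were chr17:26911397-26917047_F, 2.11 kb from a probe of Crebrf, a regulator of stress-response transcription, and chr8:85609155-85615170_F across Rnf150. The first had 11.94 and 11.54, then 9.86 and 9.69, then 9.09 and 8.83 (difference -2.78, adjusted p = 0.00703), with -2.67 in the second of 10 detected probes. The second had 7.93 and 7.55, then 6.41 and 5.81, then 5.39 and 5.50 (difference -2.30, adjusted p = 0.0156). The latter call was lost without any 1 of the untreated or LPS+USP7i arrays (adjusted p up to 0.0767).

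The differences of members were set beside those of their nearest gene as a description across regions, which are not independent and share arrays. Where a detected gene's probe lay inside the region on the same strand, the LPS minus untreated differences of region and gene had a Pearson r of 0.74 over 197 pairs, and those of LPS+USP7i minus LPS an r of 0.60. With the gene on the opposite strand inside, r was 0.08 and 0.21 over 120 pairs. Outside, within 5000 bases, r was 0.35 and 0.32 on the same strand (182 pairs) and 0.12 and 0.27 on the opposite strand (105 pairs). From 5001 to 50000 bases it was 0.13 and 0.27 on the same strand (319 pairs) and 0.16 and 0.13 on the opposite strand (295 pairs), and from 50001 to 500000 bases 0.22 and 0.0032 (121 pairs) and 0.21 and 0.15 (108 pairs). The values for LPS thus stood apart for genes inside on the same strand and had no steady order with distance beyond 5000 bases. Some same-strand pairs can be 2 probes of 1 transcript. As given above, 43 members shared a run of 30 bases or more with a same-strand gene probe, as at Zfp652. Such pairs were not left out, so these r values do not show that separate transcripts changed together.

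Over all members, 12.8% were higher and 7.61% lower with LPS. Among the 304 members with a gene on their strand inside, 39 (12.8%) were higher and 52 (17.1%) lower with LPS. Among the 1654 with no gene probe inside, 214 (12.9%) were higher and 104 (6.29%) lower, and among the 171 with a gene on the opposite strand alone, 20 (11.7%) were higher and 6 (3.51%) lower. The shares higher were near that of all members in each position, and the shares lower lay on either side of it. The counts between LPS+USP7i and LPS were 27 higher and 21 lower, 64 and 90, and 2 and 10 in the same order. They are 8.88% and 6.91%, 3.87% and 5.44%, and 1.17% and 5.85%, where 4.37% and 5.69% of all members were higher and lower. No test was made of these differences between positions.

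**Figure D4:**
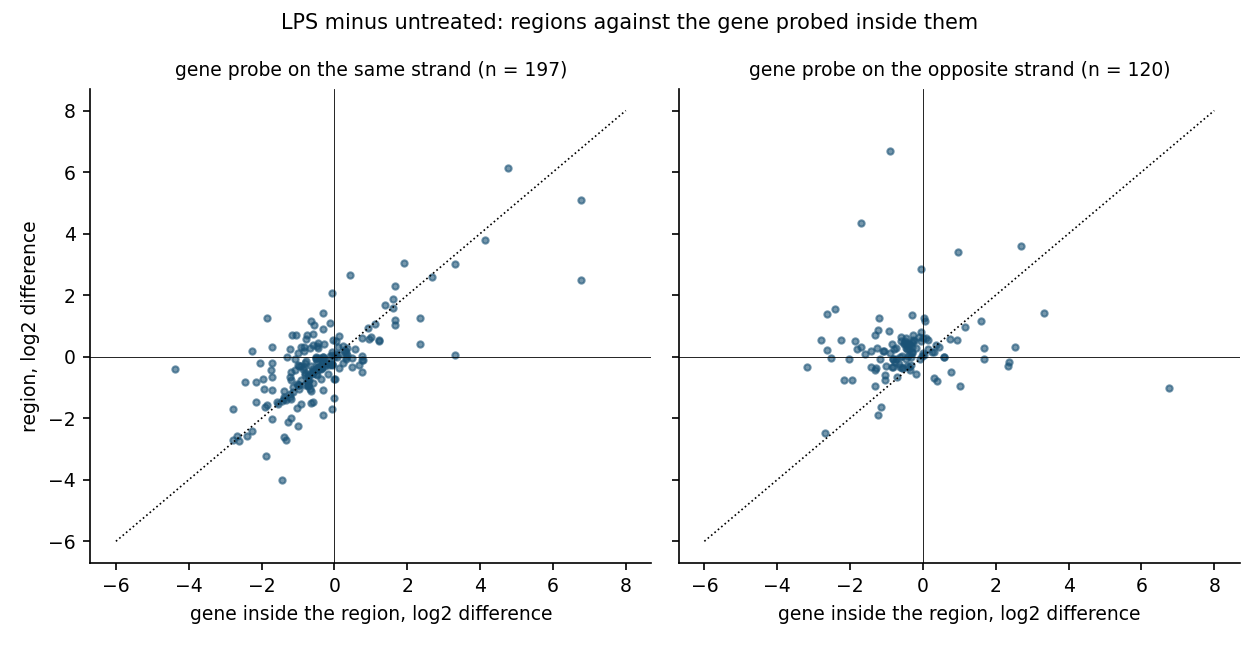
Log2 difference between LPS and untreated cells of the gene (x axis) and of the region (y axis), 1 point per pair, for members with a detected gene probe inside on the same strand (left) or the opposite strand (right); the dotted line marks equal values. The 197 same-strand pairs spread along the diagonal (r = 0.74) and the 120 opposite-strand pairs do not (r = 0.08). Pairs whose probes share sequence were not left out.

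Both strands were probed for 1067 regions, and both were members for 352 of them, 1 strand alone for 218 (forward) and 240 (reverse), and neither for 257. The level gap between the strands had a median of 2.05 log2 units. LPS differences of the 2 strands had a Pearson r of 0.15 over the pairs, and those of LPS+USP7i minus LPS 0.08. With LPS, both strands were called in the same direction in 12 regions and in opposite directions in 6, with 1 strand called in 98. The corresponding counts between LPS+USP7i and LPS were 1, 2 and 48. Over all members 12.8% were higher and 7.61% lower in the first comparison, and 4.37% and 5.69% in the second. The counts of strand pairs were not tested against these shares. In 347 pairs with mapped probes the median distance between the probes was 1.23 kb, and 114 pairs (32.9%) were over 5 kb apart. In the Trim30 cluster, with probes 12.2 kb apart, chr7:111526943-111545093_R rose by 2.50 with LPS (adjusted p = 0.00618), while chr7:111526943-111545093_F fell by 1.03 log2 units (adjusted p = 0.00469); the forward strand's second probe differed by 0.96. The reverse strand was then 2.19 lower with the inhibitor (difference -2.19, adjusted p = 0.0181).

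**Figure D5:**
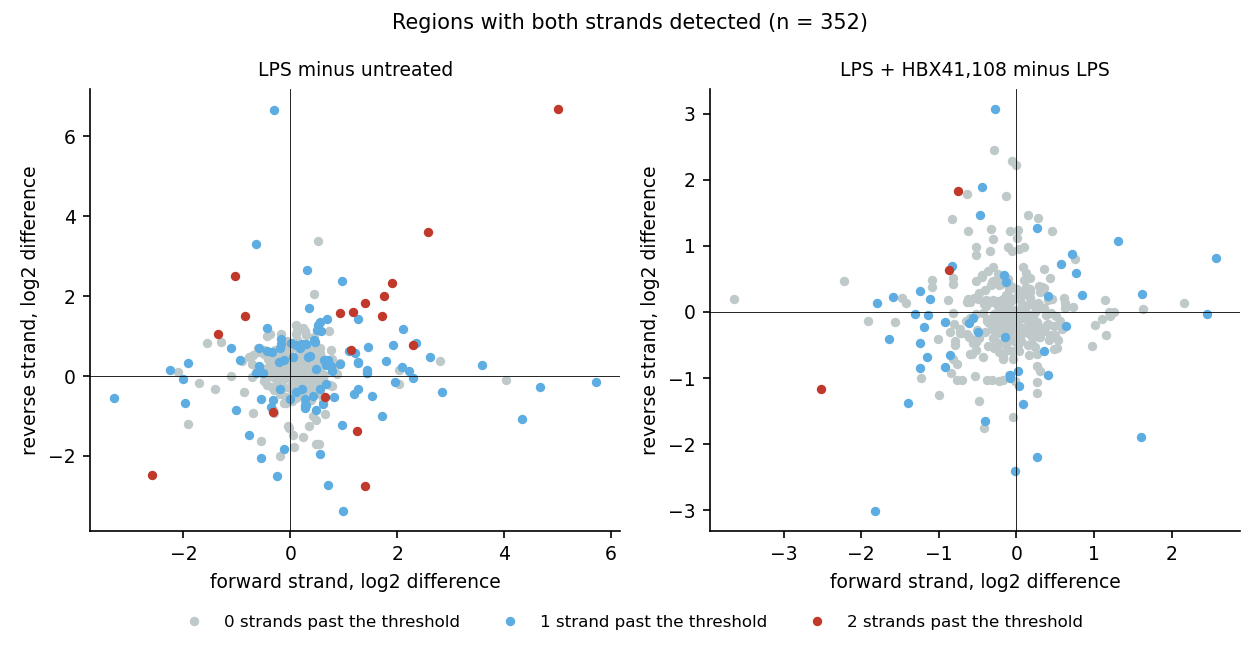
Log2 difference of the reverse strand (y axis) against the forward strand (x axis) for the 352 regions with both strands detected, for LPS minus untreated (left) and LPS+USP7i minus LPS (right), coloured by how many strands passed the test. Across the pairs r was 0.15 and 0.08. Points with both strands past the threshold in the left panel are 12 regions of the same and 6 of opposite direction, counts that were not tested.

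Other probes of the same region give a measure of how far 1 probe can be trusted. A second detected probe existed for 936 members, and 1193 had 1 detected probe. Across the 936, r between the probes was 0.73 for LPS minus untreated, with a median gap of 0.34 log2 units, and 0.68 for LPS+USP7i minus LPS, with a gap of 0.29. Of 121 members higher with LPS that had a second probe, 106 had the same sign in it, 64 were also called and 4 were called in the opposite direction. Of 102 lower members the same counts were 93, 61 and 1. Between LPS+USP7i and LPS, 57 of 60 higher and 43 of 50 lower members had the same sign in the second probe, and none was called the other way.

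Members near genes that LPS is known to induce were looked up through a list. Of these LPS-response genes, 6 had a member within 50 kb, 12 members in all, of which 3 were higher with LPS and none lower, and 1 was lower with the inhibitor. Over all members 12.8% were higher and 7.61% lower with LPS, and 5.69% lower with the inhibitor. Those higher were the Ptgs2 region above, chr11:117768049-117807949_R near Socs3, the feedback inhibitor of cytokine signalling, with 5.97 and 5.89, then 7.29 and 6.86, then 6.38 and 6.58 (difference 1.14, adjusted p = 0.0241), and chr4:155564927-155571580_R near Isg15 (difference 0.45, adjusted p = 0.0343). The Ptgs2 region, also the 1 lower with the inhibitor, was not well above background untreated and became a member through the stimulated groups. Its place among the 3 higher was in part fixed by the detection rule. The Socs3 and Isg15 calls were lost without any 1 of the arrays other than LPS replicate 2 and in the deposited log2 values (adjusted p = 0.0559 and 0.225). The region near Nfkbia, the inhibitor of NF-κB, chr12:56564855-56565310_R, differed by 0.19 (adjusted p = 0.357), and that near Junb, chr8:87504644-87513694_R, by 0.43 (adjusted p = 0.0767).

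Annotated noncoding RNAs on the array were set beside the members through a list of 66 lncRNA genes. Of these, 49 were on the array and 31 detected, of which 2 were higher and 10 lower with LPS, with a median difference of -0.56, and 8 were higher and 2 lower with LPS+USP7i than with LPS, with a median of 0.92. Of all detected gene-named features, 13.9% were higher and 25.0% lower with LPS, with a median of -0.24, and 10.4% were higher and 7.48% lower with LPS+USP7i, with a median of 0.07. Within 50 kb of 21 of the listed genes lay 54 members, 26 of them with the gene's probe inside on the same strand. With LPS, 6 of the 54 were higher and 3 lower, and with the inhibitor 4 were higher and 2 lower. Of all members 12.8% were higher and 7.61% lower with LPS, and 4.37% and 5.69% with the inhibitor. Besides those at Malat1, Neat1 and Morrbid, chr14:62294849-62301165_R across Dleu2, the host of miR-15a and miR-16-1, differed by -1.70 with LPS (adjusted p = 0.0172) and 1.91 with the inhibitor (adjusted p = 0.0265). The Dleu2 probe itself differed by -0.08 (adjusted p = 0.754) and 0.96 (adjusted p = 0.0233). The region across Gas5, a host of small nucleolar RNAs, chr1:162965309-162970704_F, differed by -1.55 with LPS (adjusted p = 0.0592) and was 2.57 higher with the inhibitor (adjusted p = 0.0324). The list was drawn up with results of these data known, and its counts describe it.

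The 6 arrays came from 1 slide scanned once. The slide's columns followed the treatment, so that column and treatment cannot be told apart, and its rows followed the replicate number, with 1 array of each group per row and so no test within a row. The members well above background numbered 1762 to 2023 per array. Per replicate number and thus slide row, the median LPS minus untreated difference over all members was 0.15 and 0.19, and that of LPS+USP7i minus LPS -0.04 and -0.06. With 2 arrays against 2, a permutation test over samples cannot go below a two-sided p of 0.333, so the calls rest on limma's model over all probes.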

How the data were processed

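BMDM RNA (200 ng, Cy3 label) was hybridised to 6 1-colour Agilent arrays. The authors extracted probe signals with Agilent Feature Extraction 10.7.3.1 on an mm9 design, and the deposited scanner files give each spot's intensity (processed signal: background-subtracted, linear). The authors also deposited a table of normalized log2 values, used here as an alternative. Here log2 intensities of non-control spots were quantile-normalized, spots marked as outliers were set missing, spots of 1 probe were averaged, and all 3 groups were fitted together in limma 3.58.1 (R 4.3.3) with Benjamini-Hochberg adjustment over 55680 probes (3 residual and 1.05 prior degrees of freedom). Before this the script was tested on simulated data.

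Members are non-control features named by coordinates and called well above background on each array of some group, each represented by its probe of highest mean signal. Named members are those with the largest measured or bounded differences in each direction of each comparison among called members, the 5 brightest, both-strand pairs and those near listed genes; the other members of their neighbourhoods, those near the lncRNA list and the further bounded ones were added after their values were seen and were not refitted under the alternatives. The members and lists were chosen with earlier results of these data known. Where every array of a group was not well above background, a fold is a lower bound against the higher of that probe's own signal and the lowest signal well above background, averaged over the arrays. Neighbouring genes come from mm9 positions of gene-named probes and RefSeq names (13271 detected features matched); no mm9 genome was used, and RefSeq intervals come from gene order in a GRCm38.p6 table. The number of arrays limits precision. 1 stretch of the genome is not described here.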

Additional observations from a re-analysis of the deposited data

How the results depend on the processing

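The 2 arrays per group and the 3 residual degrees of freedom set the main limit, and dim members near background carry the least information. Counts are of members higher; lower. With 75th percentile scaling, LPS minus untreated gave 419 higher (19.7% of members, against 20.8% of detected gene-named features). LPS+USP7i minus untreated gave 381 higher with that scaling (17.9%, against 20.4%). With dim probes left out, LPS minus untreated gave 406 higher and 255 lower (19.1% and 12%, against 17% and 30.5% of gene-named features). LPS+USP7i minus LPS then gave 194 higher and 244 lower (9.11% and 11.5%, against 15.9% and 13.1%). LPS+USP7i minus untreated then gave 300 higher and 182 lower (14.1% and 8.55%, against 15.5% and 23%). With normexp background correction, LPS+USP7i minus LPS gave 157 higher and 196 lower (7.37% and 9.21%, against 16.6% and 13.2% of gene-named features). With the 2 compared groups alone in the fit, LPS+USP7i minus LPS gave 0 higher and 0 lower in limma, as among gene-named features. At an unadjusted p under 0.05 it gave 241 and 342 members. LPS+USP7i minus untreated gave 92 higher in such a fit (4.32%, against 6.88% of gene-named features). With a log2 difference of at least 1 required, LPS minus untreated gave 181 higher and 99 lower and LPS+USP7i minus LPS 74 lower.

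The 1654 members with no gene probe inside, a choice made after seeing the data, gave 104 (6.29%) lower with LPS. In LPS+USP7i minus untreated they gave 65 (3.93%) lower. Over all members these shares were 7.61% and 4.84%. Leaving out 1 array gave 107 to 233 higher and 56 to 168 lower with LPS, 0 to 84 and 0 to 83 in LPS+USP7i minus LPS (0 without untreated replicate 1 or 2), and 28 to 111 and 14 to 83 in LPS+USP7i minus untreated. Replicate numbers 1 and 2 gave correlated deviations from the group means (r = 0.468, 0.398 and 0.422 over 20705 probes), but with 2 numbers they were not taken to pair the samples. With the replicate number, which is also the slide row, as a block the counts were 325 and 182, 78 and 92, and 204 and 121, each within 1.5 times the count without the block. Under this block 4 named calls were lost, those of chr7:111530578-111539097_R, chr19:5834117-5835940_R and chr4:63736566-63744848_R in LPS+USP7i minus LPS and of chr17:17481706-17482457_R in LPS minus untreated (adjusted p of 0.0540 to 0.0593).

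For single members, 665 recomputed differences kept direction and side of the threshold, 144 lost the call, 8 gained it and 9 changed sign. Other than with arrays left out, the block or 2 groups in the fit, the lost calls were 4 LPS ones. The deposited log2 values lost chr17:17481706-17482457_R (adjusted p = 0.257), chr11:22681800-22707775_R (0.334), chr4:155564927-155571580_R (0.225) and chr11:117768049-117807949_R (0.0559). The first and second were also lost with dim probes left out (0.0533 and 0.0688) and the trended prior (0.0845 and 0.0974), and the third with normexp (0.0545). With the 2 compared groups alone in the fit, 16 named calls of LPS+USP7i minus LPS and 5 of LPS minus untreated were lost. The sign changes were, with 75th percentile scaling, the LPS differences of the 5 brightest members (0.36 in chr8:48476637-48492537_F, 0.21 in chr17:17481706-17482457_R, 0.38 in chr14:78924115-78938125_F, 0.25 in chr11:22681800-22707775_R and 0.31 in chr7:108209996-108216032_R). The uncalled chr4:155560050-155570900_R gave -0.058 in the deposited log2 values and -0.76 to 1.34 as arrays were left out (lowest without untreated replicate 1), and chr11:117792051-117811334_R gave -0.62 to 0.77 as arrays were left out, with -0.62 without untreated replicate 2 and -0.59 without LPS replicate 1. The cause was not tested.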
